A study of Mus musculus with 6 samples.

Results

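The newly assembled lncRNAs of mouse germline stem cells included 391 transcripts that shared at least 1 splice junction with an annotated transcript of a gene with a regular symbol. They were taken as all rows with the junction-sharing class code (j) whose host gene symbol was neither a predicted gene (Gm and a number) nor a Riken clone (ending in Rik). They made up 391 of the 18573 transcripts of the table, and 448 further junction-sharing transcripts lay at predicted or Riken genes. The 391 isoforms belonged to 265 host symbols at 266 assembled loci on 20 chromosomes. The samples were spermatogonial stem cells (SSCs) from testes of mice labelled as 3 to 5 days old, and female germline stem cells (FGSCs) from ovaries of mice labelled as 6 days old, with 3 libraries of each, and the study's methods give these ages the other way round. The labels give the strain as C57BL/6 for both, whereas the methods describe offspring of a Ddx4-Cre line on an FVB background and the mT/mG reporter line on a mixed background. Both cell types came from pools of many such mice, in which a Cre driven by Ddx4, a gene of the germline lineage, switched the mT/mG reporter to GFP, and the GFP-positive cells were sorted and then selected on laminin. No treatment separated the groups, so sex and tissue, and age as labelled, differed together between SSCs and FGSCs. RNA was depleted of ribosomal RNA and sequenced in paired ends with strand marked. The table gave 1 FPKM value (read fragments scaled to transcript length and sequencing depth) per transcript for SSCs and 1 for FGSCs, so that no SD and no test could be computed from these values, and every difference that follows is a description of them. The authors' own test columns, made over the 3 libraries of each, were not used. The number of reads behind each value is unknown. The defining mRNA markers of the cell types could not be checked, since the table holds new lncRNAs: none of 9 germ cell markers, 5 Sertoli cell markers, 4 granulosa cell markers or 5 oocyte markers had a transcript in it. The Leydig cell marker Hsd3b1 and the myoid cell marker Actg2 had a new transcript each, of another class, with 0.0136 and 0.240 FPKM in SSCs against 2.21 and 1.13 FPKM in FGSCs.

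Most genes are transcribed into several isoforms, and the same exons can be joined into a messenger RNA or into an RNA without a long open reading frame. Such noncoding isoforms keep some of the splice sites of their host and differ in other exons, in retained introns or in their ends, and some are substrates of nonsense-mediated decay. A further kind of host is itself noncoding: small nucleolar RNA (snoRNA) host genes are spliced and release snoRNAs from their introns, and imprinted lncRNAs such as Meg3 are read from 1 parental chromosome only. Reads from the shared exons fit every isoform of a host, and the assembler's model divides them, so the value of an isoform depends on the other isoforms of the locus and on the annotated mRNA.

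Where the nearest annotated transcript has a single intron, the shared junction is known exactly. In GENCODE M21, 26 of the isoforms at 23 hosts had such a 2-exon reference. The ends of this intron are shown for 6 hosts whose isoforms carry differences described here, from the GRCm38 genome (mm10) and read on the gene's strand 5′ to 3′, with 14 exon bases and 14 intron bases at each end and the first and last 2 intron bases in capitals. Pyurf comes first, since both of its isoforms share this intron of 1930 bases (chr6:57689879-57691808, minus strand) and went in opposite directions.
Pyurf donor: aagaagccgcttagGTgagactcatctg
Pyurf acceptor: tttttctcccttAGatatgaagcatcga
Both isoforms of Chd3os share an intron of 100 bases (chr11:69341059-69341158, plus strand), and both were higher in SSCs.
Chd3os donor: gttgcctagcaatgGTgaggggcggcct
Chd3os acceptor: cttctttcctccAGtgctctactgtcca
Rap1gapos (intron chr4:137697365-137706521, minus strand), Spint3 (chr2:164570012-164573219, minus strand) and Defb29 (chr2:152539021-152539943, minus strand) had an isoform higher in SSCs.
Rap1gapos donor: gatatgtaggccagGTagagtggatgcc
Rap1gapos acceptor: tttatcacctccAGggctccaagctggg
Spint3 donor: agaaccaaataatgGTaggtatggaatg
Spint3 acceptor: tcttcttcttccAGtgcccaggaagtcc
Defb29 donor: tgacgagaccacagGTaactcgagtctc
Defb29 acceptor: tatgtctttctcAGgtggcctgttcgga
Bloc1s6os (chr2:122733705-122738081, minus strand) had an isoform higher in FGSCs.
Bloc1s6os donor: gctccacagcaaatGTaaggattctcga
Bloc1s6os acceptor: cattccctttacAGaacgtttgaaggaa
All 12 ends carry the GT and AG of the usual spliceosomal intron. Over the 262 distinct reference transcripts found in GENCODE M21 the same pair stood at 1290 of 1316 introns (98.0%), with GC-AG at 18 and AT-AC at 4. The exons of the new isoforms themselves were not used here, so for hosts with more than 1 intron it is not known which junction was shared.

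The hosts were mostly protein-coding. Of the isoforms, 259 lay at 193 protein-coding hosts, 127 at 69 lncRNA hosts, 4 at 2 pseudogenes and 1 at a host not matched to GENCODE M21. Their nearest reference transcript was a protein-coding one for 228, a lincRNA for 71, an antisense RNA for 36 and a processed transcript for 26, and for 11 it was annotated as a target of nonsense-mediated decay. The reference had a median of 5 exons, from 2 to 36. Clone names stood in place of a gene symbol at 27 hosts with 50 isoforms, and 26 of these hosts carry a predicted or Riken symbol in GENCODE M21, so by the newer annotation they would belong to the other group of junction-sharing transcripts. A promoter window of 300 bases was found in RefSeq (GRCm38.p6) for 206 of the 265 hosts. Its median GC content was 58.5% at 154 protein-coding hosts and 54.0% at 49 lncRNA hosts, against 52.7% over all 27025 genes of the promoter table, and its median number of CG dinucleotides was 18 over the hosts against 7 over all genes. Those 27025 genes were not limited to coding or to expressed genes, so the sets are unlike and no trait of the hosts follows. At 109 of the 265 hosts the assembled locus passed the gene by over 1000 bases. The loci of 119 isoforms also overlapped another protein-coding gene, on either strand, and 31 isoforms lay at loci that hold at least 1 snoRNA gene. The 119 include the highest isoforms of Snhg1 and of Mrpl35, described further on.

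The median level of the isoforms was 0.188 FPKM in SSCs against 0.287 FPKM in FGSCs, against 0.251 FPKM in SSCs against 0.442 FPKM in FGSCs over all transcripts of the table. A larger share was abundant: 17 of 391 (4.35%) passed 10 FPKM in at least 1 cell type. Of all 18573 transcripts 189 (1.02%) did, of the 448 at predicted or Riken hosts 4 (0.893%). Among 201 transcripts that overlap exons in sense without a shared junction 5 (2.49%) did. The highest values of the table were not among the isoforms, whose maxima were 64.1 FPKM in SSCs and 48.1 FPKM in FGSCs. Over all transcripts the maxima were 1103 and 207 FPKM. The value was 0 for 63 isoforms in SSCs and for 57 in FGSCs, 7 of which had no value above 0 at all. An isoform of at least 0.5 FPKM in a cell type was kept for counts of differences, which left 192 isoforms and set aside 199. Of the 192, 93 (48.4%) reached 0.5 FPKM in both cell types, as did 30.8% of the kept transcripts at predicted or Riken hosts, 39.1% of those that overlap exons in sense without sharing a junction, and 17.0% of all kept transcripts. Isoforms of protein-coding hosts were kept in 141 of 259 cases (54.4%) and isoforms of lncRNA hosts in 50 of 127 (39.4%). With 1 value per cell type none of these contrasts could be tested.

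**Figure D1:**
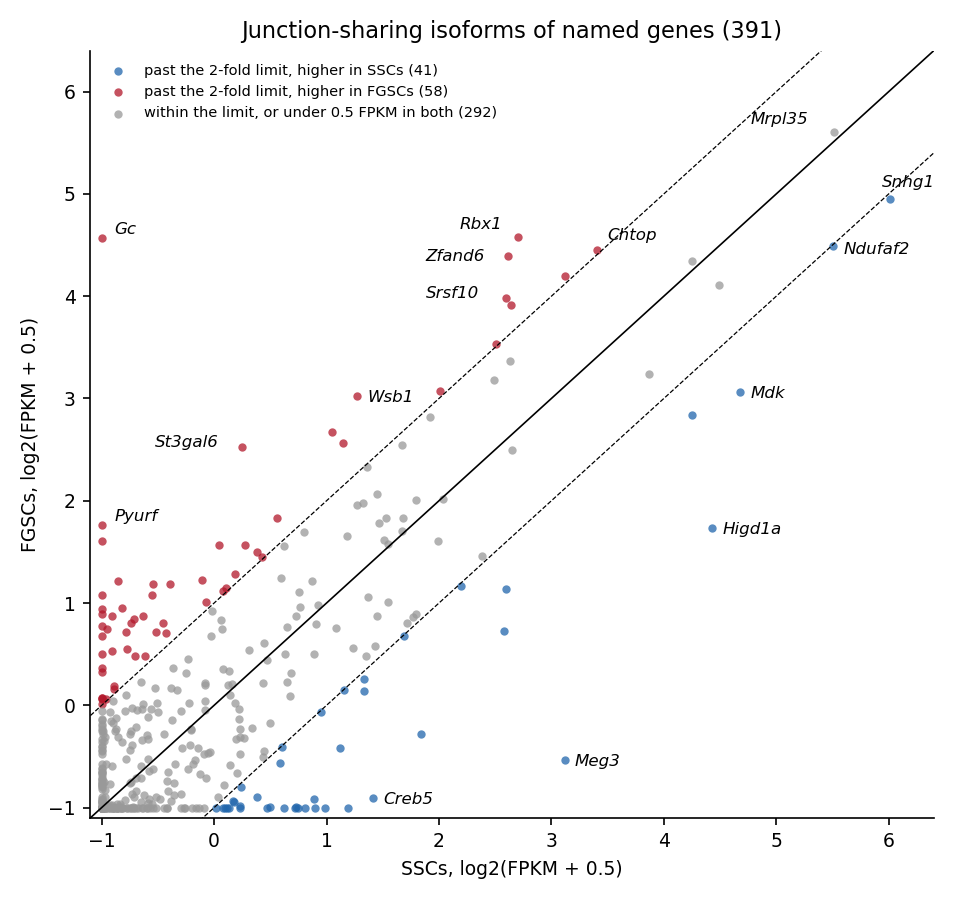
Level of each of the 391 isoforms in SSCs (x axis) against FGSCs (y axis), both as log2(FPKM + 0.5). The solid line marks equal levels, the dashed lines a difference of 2-fold, and points at -1 are listed at or near 0. The 41 isoforms past the limit in SSCs and the 58 past it in FGSCs run from low to high levels among the isoforms of at least 0.5 FPKM, below which the pseudocount holds every difference within 2-fold, and Gc and Meg3 lie farthest from the line of equality.

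A difference was taken as log2(FPKM + 0.5) in SSCs minus that in FGSCs, and an isoform counted as past the limit when this exceeded 1 in size (2-fold). The pseudocount shrinks differences of low values. Past this limit, 41 of the 192 isoforms (21.4%) were higher in SSCs, beside 23.2% of all 12019 kept transcripts, and 58 (30.2%) were higher in FGSCs, beside 31.0% of all. At this setting both shares were near those of the whole table, so the counts are not a result about these isoforms. Under some other settings, given at the end, the shares lay farther apart. Scaling the medians of the cell types to each other raised SSC values by 0.36 on the log2 scale. After it 55 (27.2%) were higher in SSCs and 47 (23.3%) in FGSCs, beside 28.6% and 26.3% of all. The split between the directions thus rests on the scaling. The median difference over the 192 isoforms was -0.20, beside -0.42 over all kept transcripts. Of the 99 isoforms past the limit, 26 (26.3%) were listed at 0 in 1 cell type, against 45.0% of all transcripts past it. At protein-coding hosts 26 isoforms were higher in SSCs and 45 in FGSCs, and at lncRNA hosts 14 were higher in SSCs and 13 in FGSCs. In these bulk samples fewer cells that carry an isoform and less of it per cell cannot be told apart.

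The most abundant isoform in SSCs, TCONS_00072404, came from Snhg1, a snoRNA host gene (chr19:8706882-8726442), with 64.1 FPKM in SSCs against 30.4 FPKM in FGSCs, a difference of 1.07 that turned to -0.30 after quantile normalization. The isoform of Ndufaf2, an assembly factor of respiratory complex I, had 44.9 FPKM in SSCs against 22.0 FPKM in FGSCs, a difference of 1.01 that turned to -0.11 after quantile normalization. The isoform of Mrpl35, a protein of the mitochondrial ribosome, had 45.3 FPKM in SSCs against 48.1 FPKM in FGSCs and was the most abundant of all in FGSCs. Of these highest isoforms only that of Mrpl35 was nearly equal in the cell types, and the other pair lay close to the 2-fold limit.

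Mdk, which encodes the heparin-binding growth factor midkine, had an isoform with 25.1 FPKM in SSCs against 7.88 FPKM in FGSCs, a difference of 1.61 that came to 0.95, within the limit, after quantile normalization. Ankrd10, an ankyrin repeat gene, had 22.1 FPKM in SSCs against 16.7 FPKM in FGSCs, within the limit. In FGSCs the highest isoform after those of Mrpl35 and Snhg1 was that of Rbx1, the RING subunit of cullin ubiquitin ligases, with 6.02 FPKM in SSCs against 23.4 FPKM in FGSCs, 3.88-fold higher in FGSCs. The isoform of Gc, the vitamin D-binding protein of blood plasma, was listed at 0 in SSCs and had 23.3 FPKM in FGSCs, the widest gap of all 391. Gc is made in liver, and of the 6 liver or blood markers it alone had a transcript in the table, so the other 5 (Alb, Afp, Ttr, Hba-a1 and Hbb-bs) give no value. The part of other cells in the Gc value was not tested.

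Chtop encodes a protein of mRNA export, and its isoform TCONS_00097986 (chr3:90498956-90509588) had 10.1 FPKM in SSCs against 21.3 FPKM in FGSCs, 2.11-fold higher in FGSCs. Zfand6, which encodes a zinc finger protein that binds ubiquitin, had 5.64 FPKM in SSCs against 20.5 FPKM in FGSCs. Near equality at high level was seen for Dpy30, a subunit of histone H3 lysine methyltransferase complexes, with 18.5 FPKM in SSCs against 19.8 FPKM in FGSCs. The isoform of RP24-439I22.1, which GENCODE M21 names Snhg14, a snoRNA host of an imprinted region, had 5.78 FPKM in SSCs against 5.16 FPKM in FGSCs. Fam162a, with 14.1 FPKM in SSCs against 8.94 FPKM in FGSCs, completed the 5 isoforms above 5 FPKM in both cell types that lay nearest to equality, with Mrpl35, Ankrd10 and those just given.

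**Figure D2:**
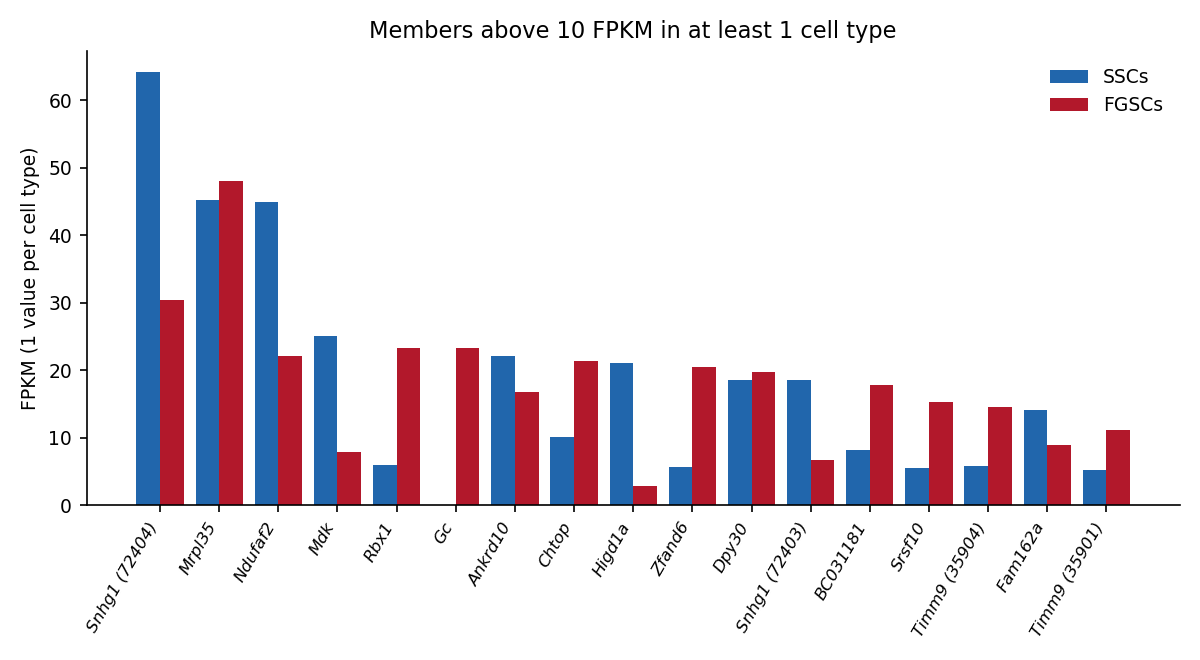
FPKM of the 17 isoforms above 10 FPKM in at least 1 cell type, for SSCs (left bar) and FGSCs (right bar), with 1 value per cell type and no error. Labels are the host genes, with the last digits of the transcript where a host has more than 1. Snhg1, Ndufaf2, Mdk and Higd1a had the taller bar in SSCs, and Rbx1, Gc, Zfand6, Srsf10 and Timm9 in FGSCs.

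Among the isoforms with at least 1 FPKM, the largest difference towards SSCs was at Meg3, the imprinted lncRNA of the Dlk1-Dio3 region, with 8.18 FPKM in SSCs against 0.191 FPKM in FGSCs. Creb5, a transcription factor gene of the CREB family, had an isoform with 2.16 FPKM in SSCs against 0.0350 FPKM in FGSCs. That of Lamtor5, a subunit of the lysosomal Ragulator complex, had 1.48 FPKM in SSCs and was listed at 0 in FGSCs. These isoforms were low or unlisted in FGSCs and moderate in SSCs.

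Chd3os, which runs opposite to the gene of the chromatin remodeler Chd3 and is named Rnf227 in GENCODE M21, had an isoform with 5.48 FPKM in SSCs against 1.15 FPKM in FGSCs and a second with 2.02 FPKM in SSCs against 0.692 FPKM in FGSCs. These are the isoforms built on the 100-base intron printed before, and both passed the limit in the same direction. Spint5, a Kunitz-type protease inhibitor gene, had 3.07 FPKM in SSCs against 0.321 FPKM in FGSCs in 1 isoform, and in another 1.15 FPKM in SSCs with a value of 0 listed in FGSCs. RP23-392H4.5 (chr7:38791617-38877414) had an isoform with 1.78 FPKM in SSCs against 8.1e-05 FPKM in FGSCs.

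The following genes were chosen after their values were seen. Spint3, another Kunitz-type inhibitor gene on chromosome 2, had 0.805 FPKM in SSCs against 0.0389 FPKM in FGSCs. The beta-defensin genes Defb42 and Defb29 had isoforms with 1.18 FPKM and 0.585 FPKM in SSCs, and both were listed at 0 in FGSCs. These isoforms passed the filter through SSCs alone, so no count is drawn from them, and the 2 other Spint5 isoforms had the larger value in FGSCs, with 0.000605 and 0.000987 FPKM in SSCs against 0.131 and 0.151 FPKM in FGSCs.

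Towards FGSCs, the widest gaps after Gc were at Pyurf and Cyb5a. Cyb5a, which encodes the electron carrier cytochrome b5, had an isoform listed at 0 in SSCs and at 2.54 FPKM in FGSCs, and its nearest reference is annotated as a target of nonsense-mediated decay. St3gal6, a sialyltransferase gene, had 0.691 FPKM in SSCs against 5.26 FPKM in FGSCs, 7.61-fold higher in FGSCs. Its 2 other isoforms were higher in SSCs, at 0.477 and 0.200 FPKM in SSCs against 0.229 and 0 FPKM in FGSCs, but stayed under the filter. The remaining isoforms of this group had lower values in FGSCs than those of Cyb5a and St3gal6. Akirin1, the gene of a nuclear protein, had 0.0517 FPKM in SSCs against 1.83 FPKM in FGSCs. Isoforms of Rps28, a ribosomal protein gene, and of Ccdc142os were listed at 0 in SSCs, with 1.61 and 1.43 FPKM in FGSCs. Bloc1s6os, whose intron is printed before, had 0.262 FPKM in SSCs against 1.77 FPKM in FGSCs, and Rap1gapos had 1.04 FPKM in SSCs and was listed at 0 in FGSCs.

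A single isoform was found at 198 hosts, 2 at 44 hosts, 3 at 10 and 4 or more at 13, so 193 of the 391 isoforms lay at 67 hosts with several. At 31 of these hosts at least 2 isoforms passed 0.5 FPKM. All of a host's kept isoforms were higher in SSCs at 10 hosts and higher in FGSCs at 12, and at 9 hosts (29.0%) they went both ways. The share of genes with kept transcripts in both directions was 23.1% (9 of 39) at predicted or Riken hosts and 9.27% (19 of 205) among intergenic genes with several transcripts. Isoforms of 1 locus share exons and reads, so they are not independent of each other. The median gap between the highest and the lowest difference of a host was 0.77.

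Isoforms past the limit in opposite directions were found at 3 hosts, Wsb1, RP23-315J23.3 and Lyplal1. Wsb1 encodes a SOCS box protein that serves as substrate receptor of a ubiquitin ligase (chr11:79239315-79254911). Its isoform TCONS_00028634 had 5.53 FPKM in SSCs against 1.69 FPKM in FGSCs, 3.27-fold higher in SSCs. The isoform TCONS_00028624 had 1.92 FPKM in SSCs against 7.63 FPKM in FGSCs, 3.99-fold higher in FGSCs. The isoform TCONS_00028625, with 1.56 FPKM in SSCs against 5.88 FPKM in FGSCs, also passed the limit, and TCONS_00028626, with 3.29 FPKM in SSCs against 6.55 FPKM in FGSCs, did not. Of the summed FPKM of the 4 isoforms, TCONS_00028634 took 44.9% in SSCs and 7.78% in FGSCs. The sum itself was 12.3 FPKM in SSCs against 21.8 FPKM in FGSCs, so the host as a whole pointed to FGSCs while 1 isoform pointed to SSCs. Wsb1 alone stayed in this group when at least 1 FPKM was required or the pseudocount was raised to 1, and no host did at a 4-fold limit.

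At RP23-315J23.3, a lncRNA gene that GENCODE M21 names Gm29087 (chr7:38468289-38570962), 6 of 7 isoforms passed the filter. TCONS_00132939 had 0.113 FPKM in SSCs against 0.899 FPKM in FGSCs, and it took 2.86% of the host's sum in SSCs and 85.7% in FGSCs. The other 5 were higher in SSCs, at 0.510 to 1.37 FPKM in SSCs against 0 to 0.132 FPKM in FGSCs, and 4 of them passed the limit. After quantile normalization the isoform higher in FGSCs no longer passed it. A lysophospholipase-like gene, Lyplal1 (chr1:186087731-186117310), also had 7 isoforms. TCONS_00011119 had 0.670 FPKM in SSCs and was listed at 0 in FGSCs, and TCONS_00011118 had 0.531 FPKM in SSCs against 2.47 FPKM in FGSCs. TCONS_00011117 also passed the limit in FGSCs, with 0.453 FPKM in SSCs against 1.52 FPKM in FGSCs, and the host's sum was 2.02 FPKM in SSCs against 5.07 FPKM in FGSCs.

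Pyurf had the widest gap of all, although 1 of its isoforms stayed within the limit. The gene is named for a reading frame upstream of Pigy, a gene of membrane anchor synthesis. TCONS_00128049 was listed at 0 in SSCs and had 2.89 FPKM in FGSCs, whereas TCONS_00128050 had 4.72 FPKM in SSCs against 2.25 FPKM in FGSCs. The second isoform thus took 100% of the host's sum in SSCs and 43.8% in FGSCs. The sums were close, at 4.72 FPKM in SSCs against 5.14 FPKM in FGSCs, so that the isoforms differed between the cell types more than the host did. How far the division of reads from the shared intron's exons set these values was not tested. The assembled locus (chr6:57580992-57692078) reached well past the gene and over Herc6, a neighbouring gene.

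The other hosts described in this group had isoforms past the limit on 1 side only. Higd1a, a mitochondrial gene induced by hypoxia, had TCONS_00159569 with 21.1 FPKM in SSCs against 2.83 FPKM in FGSCs, 7.47-fold higher in SSCs. Its other isoform had 2.43 FPKM in SSCs against 2.48 FPKM in FGSCs and changed sign when medians were scaled, so that Higd1a left this group. Zdhhc21, a palmitoyltransferase gene, had isoforms with 0.186 and 0.575 FPKM in SSCs against 1.78 and 1.72 FPKM in FGSCs, while the third had 0.915 FPKM in SSCs against 0.387 FPKM in FGSCs. Slc38a4, which encodes an amino acid transporter, had 1.38 FPKM in SSCs against 1.23 FPKM in FGSCs in 1 isoform and 0.0792 FPKM in SSCs against 1.15 FPKM in FGSCs in the other. The share of the host sum differed between the cell types by up to 36.5 percentage points at Higd1a, 44.6 at Zdhhc21 and 42.7 at Slc38a4.

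At Snhg5, a snoRNA host gene, TCONS_00158117 had 0.241 FPKM in SSCs against 1.14 FPKM in FGSCs and TCONS_00158119 had 0.664 FPKM in SSCs against 0.412 FPKM in FGSCs.

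**Figure D3:**
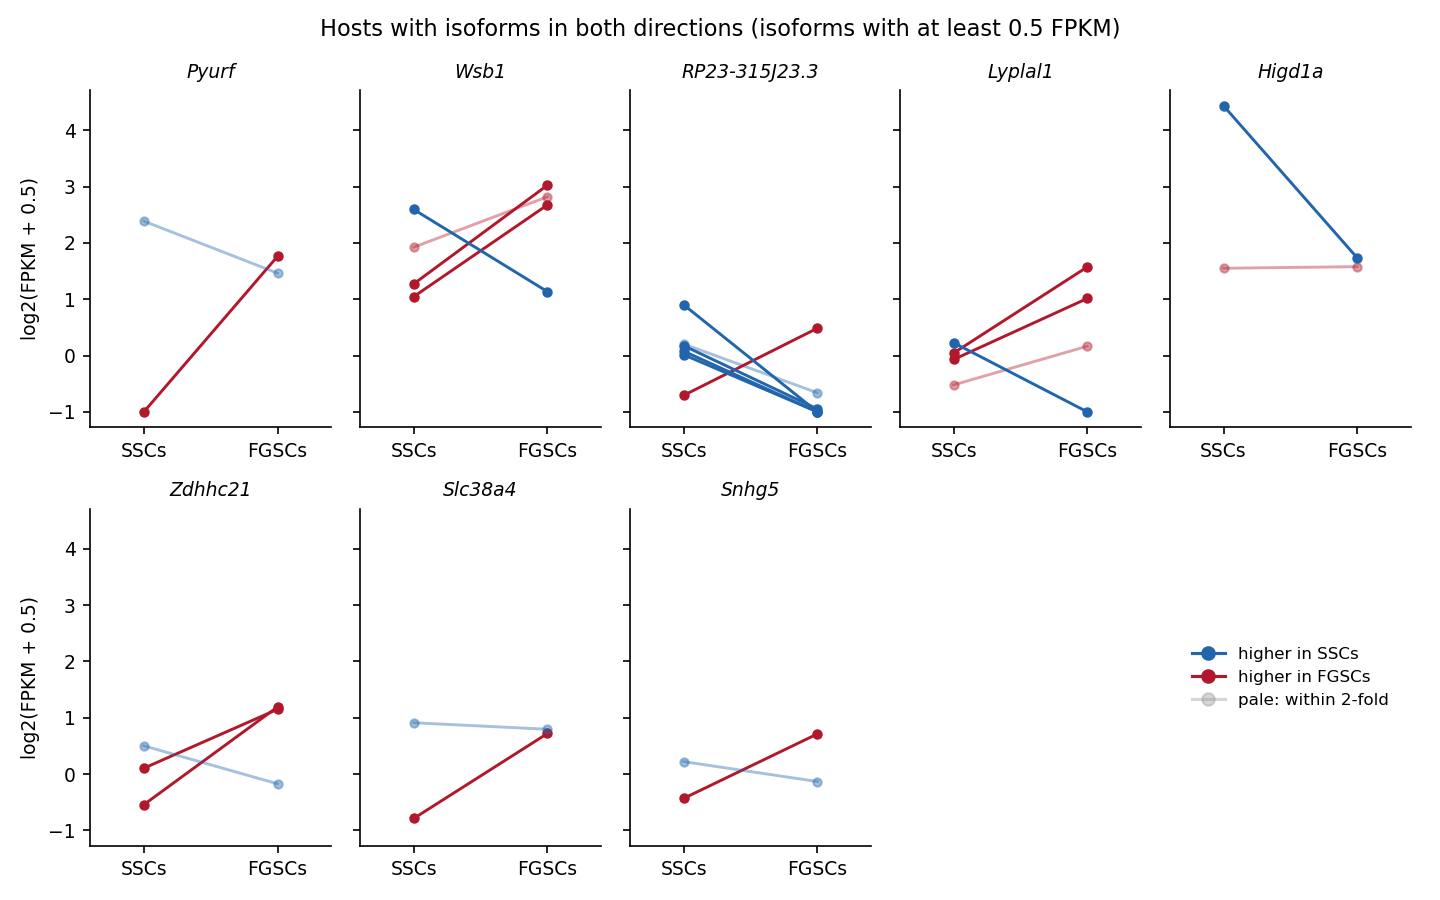
Isoforms with at least 0.5 FPKM at 8 of the 9 hosts where they went both ways, as log2(FPKM + 0.5) in SSCs (left) and FGSCs (right), with 1 line per isoform. Lines that fall to the right are higher in SSCs, and pale lines stay within 2-fold. The lines of Wsb1 and Pyurf cross between the cell types, and Higd1a joins a steep line with a flat one.

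At other hosts the isoforms moved together. All 5 isoforms of Snhg12, a snoRNA host gene (chr4:132308620-132311027), were higher in SSCs, at 0.763 to 4.08 FPKM in SSCs against 0 to 1.75 FPKM in FGSCs. Their sum was 10.1 FPKM in SSCs against 4.14 FPKM in FGSCs, and 2 of the 5 passed the limit. The 3 isoforms of Snhg1 had 64.1, 18.5 and 1.10 FPKM in SSCs against 30.4, 6.65 and 0.564 FPKM in FGSCs, all higher in SSCs, but after quantile normalization 1 of them was higher in FGSCs. The shares of the 3 within the host hardly moved, the top isoform taking 76.6% in SSCs and 80.8% in FGSCs.

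Hs3st1, a heparan sulfate sulfotransferase gene, had 3 isoforms with 0.672 to 1.16 FPKM in SSCs and at most 0.00467 FPKM in FGSCs. The 2 isoforms of B3galt1, a galactosyltransferase gene, had 1.68 and 0.679 FPKM in SSCs against 0.248 and 0.0746 FPKM in FGSCs. At RP23-172L16.1 (1700112H15Rik in GENCODE M21), the host with the most isoforms, 3 of 9 passed the filter, all past the limit in SSCs with 0.572 to 1.35 FPKM in SSCs against 0 to 0.0310 FPKM in FGSCs. Of its 6 isoforms under the filter 4 were higher in FGSCs, at most at 0.468 FPKM there.

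In the other direction, all 6 isoforms of Samd13, a gene of a SAM domain protein (chr3:146641932-146685592), were higher in FGSCs, with 0 to 0.278 FPKM in SSCs against 0.399 to 1.30 FPKM in FGSCs. The sum over Samd13 was 0.770 FPKM in SSCs against 4.01 FPKM in FGSCs. Rgs6, a regulator of G protein signalling, had 2 isoforms with 0.0992 and 0.0675 FPKM in SSCs against 1.24 and 1.43 FPKM in FGSCs. The 2 isoforms of Timm9, a gene of mitochondrial protein import, had 5.18 and 5.74 FPKM in SSCs against 11.1 and 14.5 FPKM in FGSCs, and neither passed the limit once medians were scaled.

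Meg3 and Mirg lie in the same imprinted region of chromosome 12 and differed in direction. The single Meg3 isoform (chr12:109541001-109571726) was 42.8-fold higher in SSCs, with the FPKM already given. All 7 isoforms of Mirg, a host of many microRNAs (chr12:109723421-109749460), had the larger value in FGSCs, with 0 to 0.490 FPKM in SSCs against 0.00681 to 1.39 FPKM in FGSCs. Only 4 of the 7 passed the filter and 1 the limit, TCONS_00034328 with 0.197 FPKM in SSCs against 1.15 FPKM in FGSCs, and after either rescaling 1 of the 4 had the larger value in SSCs.

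Hosts with many low isoforms made up the rest. The 5 isoforms of Crnde, a lncRNA gene, summed to 0.863 FPKM in SSCs against 2.71 FPKM in FGSCs, and TCONS_00149745 passed the limit with 0.0325 FPKM in SSCs against 0.945 FPKM in FGSCs. The snoRNA host Gas5 had 6 isoforms at 0.0715 to 0.205 FPKM in SSCs against 0 to 0.519 FPKM in FGSCs, with none past the limit. Dleu2, a lncRNA gene that hosts microRNAs, had 4 isoforms, the highest at 2.23 FPKM in SSCs against 1.33 FPKM in FGSCs. The 4 isoforms of Rmst, a lncRNA gene, stayed at or under 0.168 FPKM in SSCs against 0.0311 FPKM in FGSCs. Of the hosts with 3 isoforms, Sgcd and Cox19 had none of at least 0.5 FPKM, RP23-322C16.2 on the X chromosome summed to 0.0165 FPKM in SSCs against 1.75 FPKM in FGSCs, and AI838599 summed to 0.336 FPKM in SSCs against 1.22 FPKM in FGSCs.

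**Figure D4:**
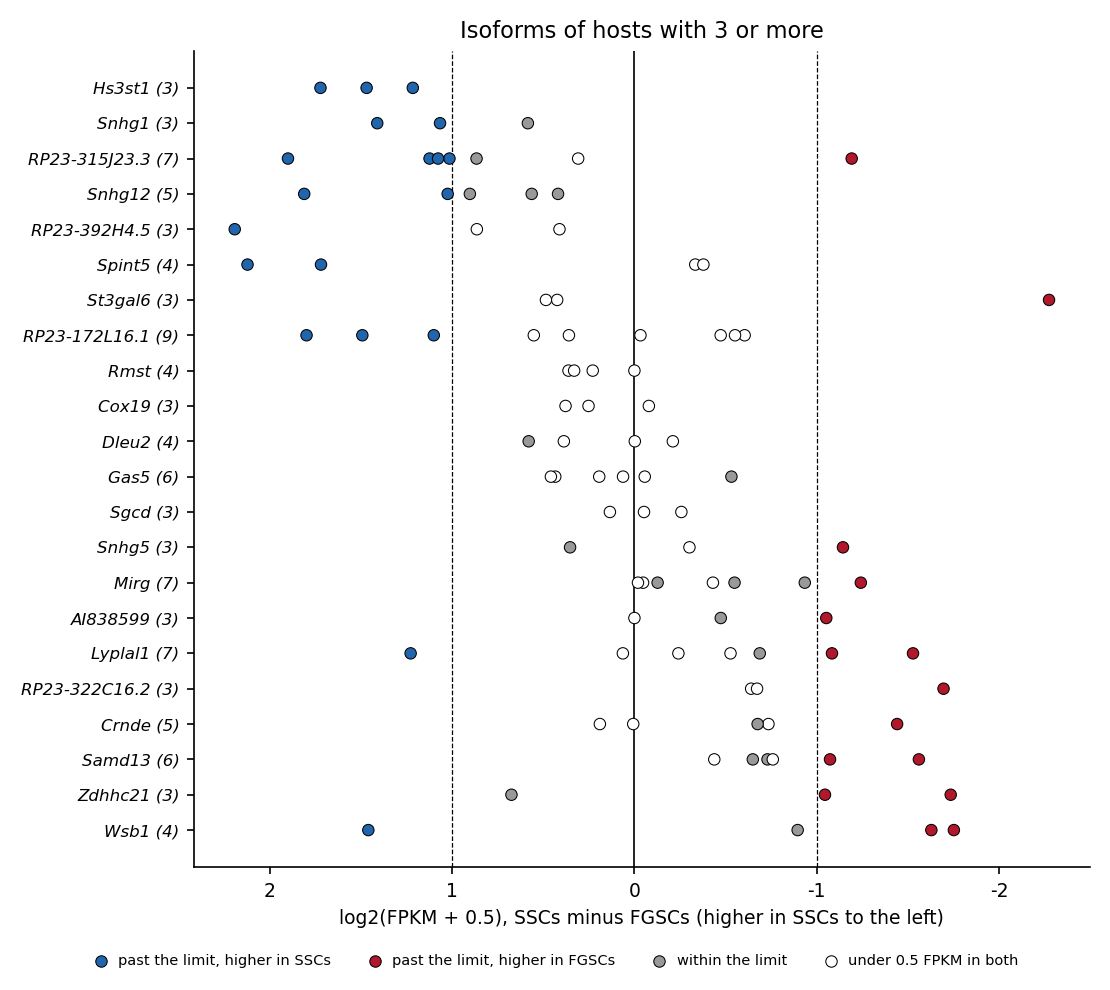
Difference of every isoform at 22 of the 23 hosts with 3 or more, as log2(FPKM + 0.5) in SSCs minus FGSCs, with values higher in SSCs to the left and dashed lines at 2-fold. Each point is an isoform, the number of isoforms stands beside the host, hosts are ordered by their median, and open points were under 0.5 FPKM in both cell types. Hs3st1, Snhg1 and Snhg12 lie wholly to the left, Samd13 wholly to the right, and Wsb1, Lyplal1 and RP23-315J23.3 reach past the dashed lines on both sides.

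Hosts were also grouped by lists of symbols with known roles, and the counts that follow hold for the members of each list and not for every gene of that role. Over all kept transcripts 23.2% were past the limit in SSCs and 31.0% in FGSCs, with a median difference of -0.42. All 6 isoforms at 5 hosts of the list of splicing and mRNA export genes passed the filter, none was past the limit in SSCs and 5 were past it in FGSCs (median difference -1.07), or 3 of the 6 once medians were scaled. Srsf10, a splicing factor gene, had 5.53 FPKM in SSCs against 15.3 FPKM in FGSCs, and Chtop was given before. The related Srsf12 had isoforms with 0.0320 and 0.0128 FPKM in SSCs against 1.34 and 0.545 FPKM in FGSCs. Smndc1, a gene of spliceosome assembly, had 5.70 FPKM in SSCs against 9.78 FPKM in FGSCs, within the limit. Rbm46os, with 0.637 FPKM in SSCs against 1.93 FPKM in FGSCs, entered by its symbol and runs opposite to Rbm46, which is not itself a splicing gene. The list does not hold the splicing genes Snrnp27 and Srrm3, whose isoforms were higher in SSCs but under the filter. They had 0.389 and 0.102 FPKM in SSCs against 0.191 and 0.0481 FPKM in FGSCs. The lists were written with earlier results of these data known, and no test was made of any.

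The list of snoRNA host genes had 10 of 12 kept isoforms higher in SSCs, with 4 past the limit there and 1 (Snhg5) past it in FGSCs (median 0.57). Of the 10, 5 were of Snhg12 and 3 of Snhg1, and isoforms of 1 host are not independent. Snhg5 had 1 kept isoform each way, and the 1 kept isoform of Gas5 was higher in FGSCs. After quantile normalization 8 of the 12 were higher in SSCs and 1 was past the limit. In the mitochondrial list 2 isoforms passed the limit in SSCs, of Ndufaf2 and of Sdhc, a subunit of respiratory complex II (0.596 FPKM in SSCs, listed at 0 in FGSCs), and 2 in FGSCs, both of Timm9, among 12 kept (median -0.06). In the ubiquitin list 2 of 10 kept isoforms passed it in SSCs, both of Chd3os, which entered by its name Rnf227, and 4 in FGSCs, among them those of Rbx1 and Park2 (median -0.12). Neither list holds Higd1a, Dnajc15 or Wsb1, whose isoforms are described by themselves. Also missing are Lyrm4, Cmc2, Mpv17l2, Fam162a and the ubiquitin ligase gene Rchy1, all with isoforms within the limit, so both lists are partial. Park2, the gene of the ubiquitin ligase parkin, had 0.145 FPKM in SSCs against 1.33 FPKM in FGSCs.

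The cell division list was drawn by patterns of symbols, held Cdc37l1 and Cdk9 among its kept hosts, and did not hold Mzt1 or Cdkn2c. It had 2 of 4 kept isoforms past the limit, both in FGSCs (median -0.84). These were of Cenpw, a centromere protein gene, with 1.71 FPKM in SSCs against 5.44 FPKM in FGSCs, and of Cep83os, opposite to a centrosome gene, with 0.428 FPKM in SSCs against 1.84 FPKM in FGSCs. The zinc finger list had 2 of 6 past it in FGSCs, Zfand6 and Zfp747 (median -0.27), and the isoform of Zfp747 was low, with 0.0855 FPKM in SSCs against 0.968 FPKM in FGSCs. The list of ribosomal proteins and translation factors had 1 of 4, that of Rps28, in FGSCs (median -0.22), and it does not hold Mcts1, given further on. In the chromatin and transcription list, the single kept isoform of a general transcription factor gene, Gtf2f2, had 2.39 FPKM in SSCs against 3.06 FPKM in FGSCs. The imprinting and X-inactivation list found Meg3, Mirg and Ftx as hosts, and of their 6 kept isoforms 1 (Meg3) passed the limit in SSCs and 1 (Mirg) in FGSCs (median -0.34). Slc38a4, which is imprinted in mouse, and Snhg14 are not in this list, and their values were given before. The list of named lncRNA genes had 9 isoforms past it in SSCs and 10 in FGSCs among 36 kept (median 0.25, turning to -0.09 after quantile normalization). The 9 include the 2 isoforms of Chd3os that were also counted in the ubiquitin list. No germ cell gene of the list hosted an isoform, and Gc and Mdk were the sole members of the lists of plasma genes and of gonadal somatic cell genes. These lists do not hold Dmrt1, a gonadal gene with 0.353 FPKM in SSCs against 0.867 FPKM in FGSCs, within the limit. Nor do they hold Foxl2os, named for the opposite strand of Foxl2. Its 2 isoforms summed to 0.103 FPKM in SSCs against 0.671 FPKM in FGSCs, both under the filter. The 178 hosts in no list had 29 isoforms past the limit in SSCs and 33 in FGSCs among 116 kept, with a median of -0.13.

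The rest of the isoforms past the limit were mostly low, and the ones named here were chosen after their values were seen. Rspo2, which encodes an enhancer of Wnt signalling, had 2.72 FPKM in SSCs against 1.10 FPKM in FGSCs, and Hbegf, a ligand of the EGF receptor, had 1.44 FPKM in SSCs against 0.459 FPKM in FGSCs. Nrg4, a neuregulin gene, had 0.231 FPKM in SSCs against 1.24 FPKM in FGSCs.

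The sets that follow are small, and their counts are without rescaling. Beside them stand 23.2% of all kept transcripts past the limit in SSCs and 31.0% in FGSCs. Isoforms whose nearest reference is annotated as a target of nonsense-mediated decay numbered 11, of which 5 were kept, none was past the limit in SSCs and 3 were past it in FGSCs. Besides Cyb5a and Nrg4 this was Dnajc15, a mitochondrial co-chaperone gene, with 3.52 FPKM in SSCs against 7.90 FPKM in FGSCs. Of 20 isoforms at 17 hosts whose symbol ends in os, for an opposite strand, 10 were kept, 3 were past the limit in SSCs and 6 in FGSCs (median difference -1.08), and only 3 of the 10 reached 0.5 FPKM in both cell types. Those past the limit in SSCs include the 2 isoforms of Chd3os, already counted in the ubiquitin and named lncRNA lists. On the X chromosome lay 11 isoforms, and 2 of the 6 kept (33.3%, near the 31.0% of all) were past the limit, both in FGSCs. These were of RP23-322C16.2 and of Mcts1, a translation factor gene with 0.973 FPKM in SSCs against 3.06 FPKM in FGSCs. Of the 31 isoforms at loci with a snoRNA gene 16 were kept, with 4 (25%) past the limit in SSCs and 4 (25%) in FGSCs. Both shares were near those of all kept transcripts. The median difference of the kept isoforms was 0.49. This set and the snoRNA host list, with a median of 0.57, share isoforms, among them the highest of Snhg1. The medians are therefore not independent of each other.

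Some hosts also had new transcripts of another class. In antisense, 17 transcripts lay at 13 of the hosts. Of the 13 transcripts kept, 4 passed the limit, all in FGSCs. Of all kept antisense transcripts 22.2% passed it in SSCs and 25.3% in FGSCs. Zfp787, a zinc finger gene, had a junction-sharing isoform with 2.96 FPKM in SSCs against 3.53 FPKM in FGSCs, within the limit. Its antisense transcript TCONS_00131109 had 0.597 FPKM in SSCs against 2.21 FPKM in FGSCs, past it, so the strands did not move by the same amount. At Smim4 the antisense transcript had 5.62 FPKM in SSCs against 3.46 FPKM in FGSCs. In sense, 4 transcripts overlapped exons of 4 hosts, and that of Zfp951, with 1.49 FPKM in SSCs against 0.0861 FPKM in FGSCs, was the only one past the limit.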

How the data were processed

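The authors mapped reads to mm10, assembled transcripts, removed known and coding ones and deposited FPKM per transcript, 1 value for SSCs and 1 for FGSCs from Cuffdiff over 3 libraries each. The submitters' processing notes name TopHat2, Cufflinks and Cuffdiff 2.1.1, and the study's methods add Scripture. Deposited columns with the authors' fold changes, test scores, p-values and calls were not used. Per-transcript depth is unknown.

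Transcripts with at least 0.5 FPKM in a cell type were kept, differences were taken as log2(FPKM + 0.5), SSCs minus FGSCs, without rescaling, and the limit was 2-fold. No test could be computed from 1 value per cell type. Named isoforms were the 1 the study's text names, the 8 largest differences each way with at least 1 FPKM, the 5 most abundant per cell type, hosts with 4 or more isoforms, up to 8 hosts with isoforms in opposite directions, up to 4 per gene list past the limit, and the 5 nearest to equality above 5 FPKM in both. Others were chosen after their values were seen. Members, lists and rule were chosen with earlier results of these data known. Table starts had 1 added, and 381 of 391 reference transcripts were found in GENCODE M21, 143 of them in the same version. Introns printed are of the same version. Alternatives changed pseudocount, filter, scaling and limit. The software was Python 3.11.15 with pandas 2.3.3, NumPy 2.4.6, pysam 0.24.0 and matplotlib 3.10.9. Results of 1 host gene are not reported here by name and are left out of the plots by host.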

Additional observations from a re-analysis of the deposited data

How the results depend on the processing

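With a pseudocount of 0.1 the hosts with isoforms past the limit in opposite directions numbered 5. With a pseudocount of 1, 19 isoforms (9.90%) were past the limit in SSCs and 31 (16.1%) in FGSCs. Over all transcripts these were 1298 (10.8%) and 1194 (9.93%), and 1 host had isoforms past it both ways. Requiring 1 FPKM kept 125 isoforms, of which 27 (21.6%) were past it in SSCs and 44 (35.2%) in FGSCs, with a median of -0.32. Of all 4299 transcripts kept, 1582 (36.8%) were past it in SSCs and 1564 (36.4%) in FGSCs. At this filter 1 host had isoforms past it both ways and 5 hosts had both signs. With no filter the median was -0.000104 and 26 hosts had both signs. Scaling medians gave a median of 0.14. Dropping values of 0 left 1791 of all transcripts (19.7%) past the limit in SSCs and 1792 (19.7%) in FGSCs, beside 17.5% and 26.5% of the isoforms. At 4-fold, 5 isoforms (2.6%) were past it in SSCs, 6 (3.1%) in FGSCs and 0 hosts both ways. Over all transcripts these were 705 (5.87%) in SSCs and 521 (4.33%) in FGSCs. Quantile normalization reversed Snhg1 TCONS_00072404 (-0.30) and Ndufaf2 (-0.11). Of 795 values of the 118 named isoforms under alternatives, 731 stayed on their side of the limit and 16 came to pass it. The 731 include 118 with no filter, 87 with values of 0 dropped and 107 at 1 FPKM. Those settings leave each difference unchanged and could not move it across the limit. A further 46 no longer counted as past it. Of these, 22 with a pseudocount of 1, 7 after scaling medians and 6 after quantile normalization fell short of it. The other 11 were set aside by the 1 FPKM filter. The causes were not tested. No library could be left out, since the table gives 1 value per cell type. No paired analysis was possible because the columns carry no replicate.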

Other observations

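Between Meg3 and Mirg on chromosome 12 (109602279 to 109723358, mm10) the table holds 19 further new transcripts, none of them a junction-sharing isoform of a named gene. Of these, 18 had the larger value in SSCs, 12 of the 17 with at least 0.5 FPKM were past the 2-fold limit there, and 0 were past it in FGSCs. No test could be made with 1 value per cell type. The 15 transcripts nearer to Meg3, which end at 109706864, had 0.157 to 2.30 FPKM in SSCs against 0 to 0.130 FPKM in FGSCs. The 4 transcripts at Mir666 and Mir654, next to Mirg, had 0.779 to 1.02 FPKM in SSCs against 0.275 to 0.893 FPKM in FGSCs, and none was past the limit. The 7 Mirg isoforms that follow had the larger value in FGSCs as deposited, with 1 past the limit and 3 under 0.2 FPKM in both cell types, and after quantile normalization 3 of the 7 had the larger value in SSCs, by at most 0.040 on the log2 scale. The stretch was chosen after the values of Meg3 and Mirg were seen.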
